A study of Mus musculus with 8 samples.

Results

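The bulge-only sites are stretches of open chromatin that were called as peaks in bulge hair follicle stem cells and in none of the 3 populations further along the hair lineage. Overlapping peaks (1 bp or more) of 4 deposited peak lists were merged into 114956 sites, with the mitochondrial and Y chromosomes left out. Of these, 7750 sites (6.74%, 95% Wilson interval 6.60 to 6.89%) held a peak of the bulge list alone. They made up 12.4% of the 62320 bulge peaks used. The hair germ list weighed most in the choice: without it, 15545 sites would count as bulge-only. The sites were chosen by the presence of a called peak in the bulge list and its absence from the other lists, so the number of sites and their peak heights describe them and support nothing further.

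ATAC-seq uses a transposase that cuts and tags accessible DNA. The study followed chromatin through 4 cell populations sorted from mouse back skin, with 8 samples, 2 for each population. Bulge stem cells were sorted as GFP+/CD34+/Itga6+/Itgb1+, and cells of the hair germ by the same markers except that they were CD34-. Both came from Lgr5-eGFP-ires-CreER mice in the second rest phase (telogen) at postnatal day 55. Basal transient amplifying cells (TACs; GFP-/CD34-/Itgb1high/Pcad+/SCA1-) came from the same strain in the growth phase (anagen) at postnatal day 30. Suprabasal TACs (GFPlow/Itga6-/CD34-) came from K14-H2BGFP mice at postnatal day 30, a transgene driven by the keratin 14 promoter. Sex was mixed in all samples, and no population came from untagged mice. Age, hair cycle phase and, for suprabasal TACs, strain differ together with cell type and cannot be told apart from it. Each population had 1 peak list called on both samples pooled, so no spread between replicates exists and no test was made. The bulge list rests on 24065469 fragments, that of the hair germ on 11053351, that of basal TACs on 30824845 and that of suprabasal TACs on 47852893. Intervals below cover counting error only.

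The bulge is the niche in the outer root sheath where hair follicle stem cells rest between growth cycles, and the hair germ is the small cluster below it whose cells respond first when a cycle begins. Bulge cells are kept quiescent by BMP and FGF18 signals and by secreted WNT inhibitors, and they are held to the basement membrane by integrins and hemidesmosomes. Their identity depends on transcription factors such as SOX9, LHX2, NFATC1, TCF7L1, TCF7L2 and the nuclear factor I proteins NFIB and NFIX. Most cell-type-specific open sites in mammals are distal enhancers, whereas promoters tend to be open in many cell types.

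Few bulge-only sites lay at gene starts, and those that did are shown first because there the sequence is known. Promoter windows, from 250 bases before to 50 bases after a RefSeq start, numbered 32619, and a bulge-only site lay over 120 of them (0.368%). These were 113 sites, of which 54 lay over windows of 54 protein-coding genes, with a median summit coverage of 24.5 fragments. The promoters of 5 genes are printed, picked after their values were seen: those of Slco4a1 and Itm2c had the highest coverage, that of Abca14 the highest fold enrichment, that of Zeb2 the highest coverage over 10 kb from another list's peak, and Itgb6 was a member of a gene list. Capitals mark matches on either strand to AP-1 (TGANTCA), SOX (ACAAAG or ACAATG), TCF/LEF (CTTTGA), NFI (TTGGCA) or LHX (TAATTA) letters. Matches are marked over the whole window, also where the site covers only part of it. The marked match at Itm2c lies outside its site, which starts at chr1:85894353. Sequences are from RefSeq, build GRCm38.p6 (the build of mm10), in the direction of the gene. The windows lie at chr2:180460728-180461027 (+ strand, Slco4a1), chr1:85894260-85894559 (+, Itm2c), chr7:120203714-120204013 (+, Abca14), chr2:45110228-45110527 (-, Zeb2) and chr2:60722554-60722853 (-, Itgb6).
Slco4a1: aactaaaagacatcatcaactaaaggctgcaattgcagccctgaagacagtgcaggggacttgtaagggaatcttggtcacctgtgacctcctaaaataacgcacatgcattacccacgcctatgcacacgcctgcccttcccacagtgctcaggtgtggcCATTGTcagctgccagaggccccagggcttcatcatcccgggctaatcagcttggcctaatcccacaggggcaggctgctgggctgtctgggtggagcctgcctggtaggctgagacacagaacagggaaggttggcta
Itm2c: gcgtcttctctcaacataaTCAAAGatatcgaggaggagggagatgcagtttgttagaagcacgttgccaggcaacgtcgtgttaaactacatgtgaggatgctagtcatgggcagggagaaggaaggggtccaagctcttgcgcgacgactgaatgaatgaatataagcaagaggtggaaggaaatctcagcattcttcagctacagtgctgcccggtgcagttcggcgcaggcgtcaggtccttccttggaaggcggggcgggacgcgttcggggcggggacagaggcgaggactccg
Abca14: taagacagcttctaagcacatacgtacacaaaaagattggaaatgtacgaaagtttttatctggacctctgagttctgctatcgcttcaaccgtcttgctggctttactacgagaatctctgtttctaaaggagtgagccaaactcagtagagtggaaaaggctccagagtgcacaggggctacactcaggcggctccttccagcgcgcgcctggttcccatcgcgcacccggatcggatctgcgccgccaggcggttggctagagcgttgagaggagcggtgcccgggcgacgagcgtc
Zeb2: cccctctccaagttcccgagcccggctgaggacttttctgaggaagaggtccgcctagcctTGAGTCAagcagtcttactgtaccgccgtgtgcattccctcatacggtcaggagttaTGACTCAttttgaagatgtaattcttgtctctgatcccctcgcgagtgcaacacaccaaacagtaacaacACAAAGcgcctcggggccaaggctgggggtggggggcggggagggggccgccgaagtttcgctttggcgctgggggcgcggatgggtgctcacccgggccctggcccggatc
Itgb6: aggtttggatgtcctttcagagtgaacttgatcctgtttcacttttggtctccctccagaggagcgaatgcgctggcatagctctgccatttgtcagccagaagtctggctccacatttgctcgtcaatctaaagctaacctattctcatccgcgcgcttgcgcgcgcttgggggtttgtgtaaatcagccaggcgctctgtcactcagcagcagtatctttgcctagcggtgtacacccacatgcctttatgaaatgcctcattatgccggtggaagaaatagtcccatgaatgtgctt

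At Slco4a1, an organic anion transporter gene, the bulge-only peak reached 137 fragments with its summit 96 bases before the start, and its fold enrichment over the local background was 3.39. At Itm2c, a membrane protein gene, it reached 96 fragments (fold 3.30). At Abca14, an ABC transporter gene, it reached 61 fragments, and its fold of 12.9 was the highest of the promoter sites. The nearest peaks of another list lay 2770 bp from the Slco4a1 site, 2152 bp from the Itm2c site and 1659 bp from the Abca14 site, so all 3 stood beside sites open in other populations. The Zeb2 site, by contrast, stood far from them: at 44 fragments and a fold of 7.26, it was 60460 bp from any peak of another list. Zeb2 encodes a zinc finger repressor known for its role in epithelial to mesenchymal transition. The Zeb2 window held 2 matches to the AP-1 letters and 1 to the SOX letters, while the Abca14 and Itgb6 windows held none of the marked motifs. Itgb6 encodes the epithelial integrin beta 6 chain, and its site reached 29 fragments (fold 4.37). A second promoter of a list member, that of Runx3, had a site of only 16 fragments. Other promoters with bulge-only sites were those of S1pr5 (93 fragments), Ltbp4 (91), Aqp3 (88), Bmf (71), Hoxb4 (67), Krt24 (45) and Gdnf (44).

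Of the 16 motifs searched, KLF letters (CACCC) were the ones whose share lay above that of all windows, interval included, both overall and at protein-coding genes. The protein-coding windows are part of the 120, so the comparisons are not independent. Among 16 motifs, a share can also fall outside its interval by chance, which was not tested. They occurred in 68.3% (82 windows, interval 59.6 to 76.0%) of the 120 windows, against 57.7% of all 32619 windows. Of the 56 windows of protein-coding genes with a bulge-only site, 42 held them (interval 62.3 to 84.5%), against 59.8% of all protein-coding windows. AP-1 letters occurred in 15.0% (18 windows, 9.70 to 22.5%) of the 120 windows, against 7.85% of all, but in 1 of the 56 protein-coding windows (1.79%), against 7.04%. LHX letters likewise occurred in 10.0% (5.81 to 16.7%), against 5.25%, but in 3.57% of the protein-coding windows, against 4.47%. ETS letters (CCGGAAG) occurred in 1.67% (0.458 to 5.87%), against 8.92%, and in 3.57% (0.985 to 12.1%) of the protein-coding windows, against 11.7%, which lies within that interval. For SOX (ACAAAG) the shares over all windows were 20.8% and 18.7%, for TCF/LEF 12.5% and 16.0%, and for NFI 17.5% and 14.1%, each within the interval of the smaller set. Matches were counted over whole windows, not only under the bulge-only site. Some windows overlap each other, and a match is a description of letters, not of binding. The median GC content was 56.5% in the 56 protein-coding windows and 56.7% in all protein-coding windows.

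Bulge-only sites overlapped 3 of 1005 microRNA hairpins (0.299%). MicroRNAs are short RNAs that silence messages paired to their seed, bases 2 to 8, which is in capitals. The mature sequences of 2 of these genes are printed because their sites passed the hair germ level defined below, and the 4 arms have 4 different seeds.
mmu-miR-206-3p: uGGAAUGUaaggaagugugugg
mmu-miR-206-5p: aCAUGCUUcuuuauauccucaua
mmu-miR-224-5p: uAAGUCACuagugguuccguu
mmu-miR-224-3p: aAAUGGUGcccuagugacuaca

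The Mir206 hairpin, best known from skeletal muscle, lay in a bulge-only site at chr1:20678881-20679322 with 34 fragments and a fold of 7.90. A second bulge-only site, at chr1:20677976-20678308, had 41 fragments and a fold of 9.48. The nearest peak of another list was 140022 bp from the first and 141036 bp from the second, so this pair stood alone. The Mir224 hairpin lay in a site of 27 fragments (fold 6.76) on the X chromosome, 12715 bp from another list's peak. The third hairpin, Mir3110, was overlapped only at its end, by a site of 12 fragments (fold 3.14), 961 bp from another list's peak.

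Most bulge-only peaks were low and short. Their median summit coverage was 24 fragments (5th to 95th percentile 13 to 75, highest 253). By comparison, the median was 49 for bulge peaks shared with the hair germ list alone and 97 for those at sites of all 4 lists. Median lengths ran in the same order, at 372 bp for bulge-only peaks, 634 bp for those shared with the hair germ alone and 970 bp for those in all 4 lists. Fold enrichment over local background was 4.59 in the median, against 7.24 and 9.19, and −log10 q was 8.57, against 26.2 and 57.9. Bulge peaks shared only with basal TACs (23 fragments, 402 bp) or only with suprabasal TACs (25 fragments, 353 bp) were close to the bulge-only ones. These values are the authors' caller's, set side by side within the bulge list. In a bulk sort, a site open in few cells and a site weakly open in every cell cannot be told apart.

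Sharing followed coverage closely. Of bulge peaks with 10 to 14 fragments, 38.6% were bulge-only and 35.5% overlapped a hair germ peak. At 20 to 29 fragments the bulge-only share was 23.6%, at 50 to 99 it was 6.53%, and at 100 to 199 it was 1.54% (1.33 to 1.78%, 175 of 11394 peaks). Of the 8587 bulge peaks with 200 or more fragments, 4 were bulge-only (0.0466%), and 99.9% overlapped a hair germ peak. A high peak held by the bulge alone was thus rare.

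**Figure D1:**
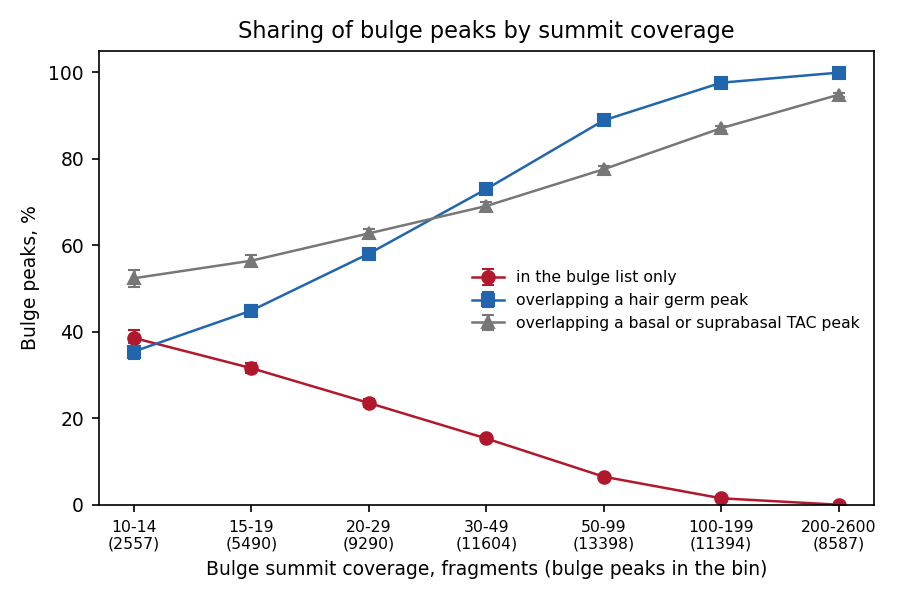
Share of bulge peaks (%) that lay in the bulge list only, overlapped a hair germ peak, or overlapped a basal or suprabasal TAC peak, by bins of bulge summit coverage in fragments. Bars are 95% Wilson intervals, mostly smaller than the markers. The bulge-only share was 38.6% in the lowest bin and 0.0466% in the highest.

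The hair germ library held 0.459 times the fragments of the bulge library, so a low bulge peak could be missed there through depth alone. A bulge-only site was counted as visible at hair germ depth if its coverage, multiplied by 0.459, reached 9 fragments, the 5th percentile of the hair germ peaks. This needed 19.6 fragments in the bulge. By this measure 5027 sites (64.9% of bulge-only sites, 63.8 to 65.9%, and 4.37% of all sites) would be visible, and 2723 would not. At basal TAC depth 6763 sites (87.3%) would be visible, and at suprabasal TAC depth all 7750 would. The suprabasal level needed only 9.56 bulge fragments, below the lowest bulge peak used (10), so that outcome was fixed in advance. The hair germ level was the highest of the 3, so the same 5027 sites passed at all 3 depths. The measure scales coverage only and leaves out differences in enrichment. Median fold was 7.48 in the bulge list and 4.79 in the suprabasal TAC list. At the edge, 314 sites had 20 fragments (median fold 5.07) and 344 had 19 (median fold 4.83). The depth ratio has a second estimate: at sites of all 4 lists bulge peaks had a median of 97 fragments and hair germ peaks 45, a hair germ to bulge ratio of 0.464.

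The visible count depends on where the level is set. With the lowest hair germ coverage as the level, 7121 sites were visible. With the 25th percentile the count was 2180, and with the median hair germ peak it was 599 (7.73%). A level on the caller's own scale was the lowest −log10 p of the hair germ list (3.11). By the Poisson p recomputed over the scaled local background, 7235 sites (93.4%) reached it. Its like among the coverage levels is the lowest hair germ coverage (7121 sites), not the 5th percentile. Both the p level and the 5th percentile of coverage were passed by 4878 sites. Of the 5027 sites, 4156 also had no peak of another list within 1 kb.

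The highest sites mostly stood on a high local background. The 20 bulge-only sites with the highest coverage had 158 to 253 fragments, yet a median fold of only 4.01, on a median local background of 43.2 fragments. The nearest peak of another list lay 235 to 3870 bp away, within 1 kb for 8 of the 20, and 12 lay inside gene spans. First was a site of 253 fragments near Gtf3c6, which encodes a subunit of RNA polymerase III factor TFIIIC, at chr10:40262290-40262742 (fold 5.73). Sites near Spink2, a protease inhibitor gene, and in Sdc4, the heparan sulfate proteoglycan syndecan 4, followed with 242 and 228 fragments. Next came Pkd1l1 (200), Prrg4 (196), Trabd2b (196), Osbpl2 (184) and Ap5s1 (181).

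The ninth was in Itga6, the integrin alpha 6 chain of hemidesmosomes, at chr2:71790106-71790781, with 176 fragments and a fold of 5.79. Itga6 was itself a sorting marker. Sites at Pnkd, Igfbp7, Slc39a10 and Aknad1 had 172 fragments each. A site within Tcf7l2, a transcription factor of the WNT pathway, stood apart: at chr19:55830448-55831419 it had 170 fragments, a local background of 15.9 fragments and a fold of 10.1, the highest fold of the 20. The remaining 6 (158 to 168 fragments) lay at Larp4b, Atp6v1c2, Sbsn, Hivep2, Rnf217 and a place with no protein-coding gene within 100 kb.

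A ranking by fold enrichment named other sites. None of the 20 sites with the highest fold (14.5 to 18.6) was among the 20 with the highest coverage. They had 59 to 122 fragments on a background of 3.14 to 5.91 fragments, and lay 1298 to 57373 bp from another list's peak (median 9964.5 bp). The highest fold, 18.6, was at chr1:143803660-143803980, 76 fragments, nearest to Uchl5, a proteasome-bound deubiquitinase. The tallest of these, at chr14:98929296-98929830, had 122 fragments and a fold of 17.8. It lay 46235 bp from another list's peak, with no protein-coding gene within 100 kb. A site nearest to Creb1, a cyclic AMP responsive transcription factor, had 86 fragments (fold 16.7), 57373 bp from another list's peak. A second site assigned to Tcf7l2, at chr19:56029248-56029846, had 79 fragments and a fold of 15.1. It lay 95589 bp outside the gene span, near the 100 kb limit of assignment. Sites assigned to Tcf7l2 thus stood near the top of both rankings.

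**Figure D2:**
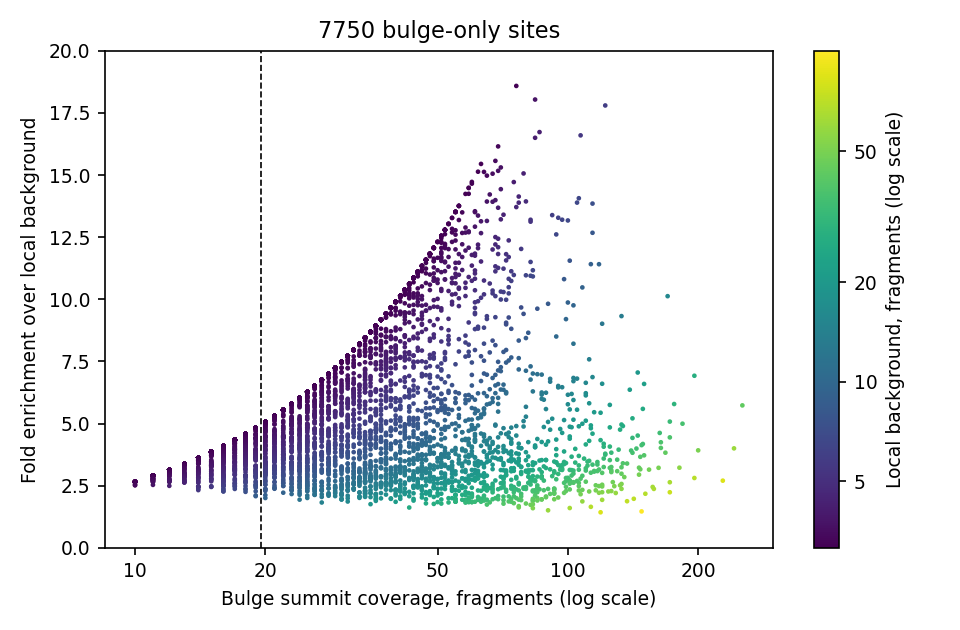
Each point is 1 of 7750 bulge-only sites, by bulge summit coverage (fragments, log scale) and fold enrichment over local background, coloured by that background in fragments (log scale). The dashed line is the level visible at hair germ depth, 19.6 fragments. The 20 sites of highest coverage have a median fold of 4.01, and the Tcf7l2 site at 170 fragments stands above them with a fold of 10.1.

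The gap in fold between bulge-only and other bulge peaks grew with coverage. At 20 to 29 fragments, bulge-only peaks had a median fold of 5.37, against 5.55 for all bulge peaks. At 50 to 99 fragments it was 4.36, against 9.27, and at 100 to 199 it was 3.59, against 10.4. The median local background at 100 to 199 fragments was 33.7 for bulge-only peaks, against 12.9 for all. In that bin 32.0% of the bulge-only sites had another list's peak within 1 kb, compared with 13.9% at 10 to 14 fragments. Over all coverage, 987 bulge-only sites (12.7%) had a fold under 3, against 4.69% of all bulge peaks.

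Bulge-only sites were distal. Within 1 kb of either end of a protein-coding gene lay 3.78% of them, compared with 4.78% of hair-germ-only sites, 3.60% of sites held by both telogen lists alone, and 37.1% of sites in all 4 lists. Over promoter windows the shares were 1.46%, 1.48%, 2.36% and 32.3% in the same order. Inside gene spans lay 50.9% of bulge-only sites (69.8% of sites in all 4 lists), and 15.8% were over 100 kb from any protein-coding gene (5.39%). Sites of the TAC lists alone, 46854 in number, had 5.31% near gene ends, and over all 114956 sites the share was 14.0%. Few sites near gene ends were thus found in every one of these sets but that of all 4 lists. Exons and introns were not separated.

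**Figure D3:**
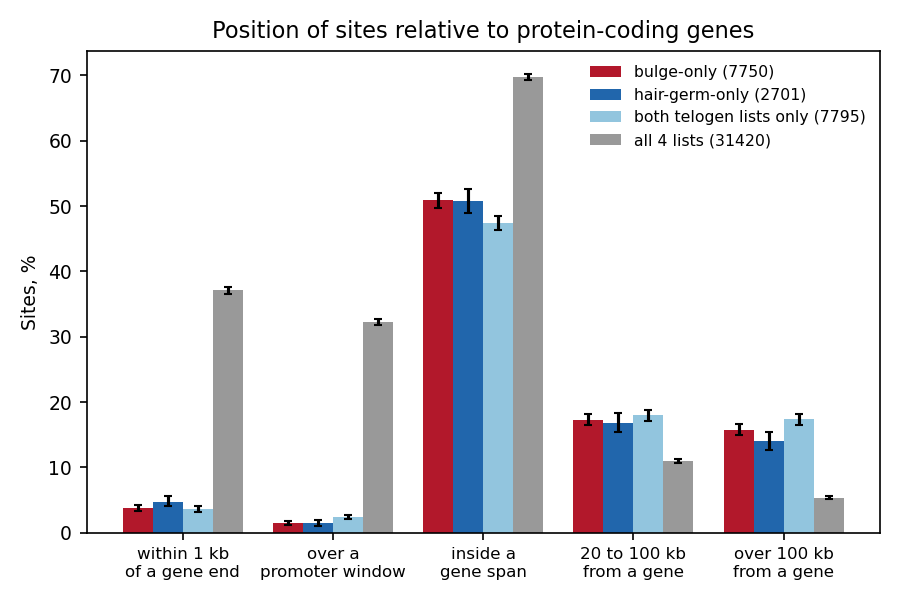
Share of sites (%) by position relative to protein-coding genes, for 7750 bulge-only, 2701 hair-germ-only, 7795 sites of both telogen lists only and 31420 sites of all 4 lists. Promoter windows are those of all RefSeq genes in the table, and bars carry 95% Wilson intervals. The first 3 sets lie at 3.60 to 4.78% near gene ends, against 37.1% for sites of all 4 lists.

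Chromosome X held 239 bulge-only sites. They were 9.22% of all X sites and 16.0% (14.3 to 18.0%) of X bulge peaks, while on the 19 autosomes bulge-only peaks made up 11.2 to 14.0% of bulge peaks. Of bulge-only sites 3.08% (2.72 to 3.49%) lay on X, beside 2.26% of all sites. The share was 2.90% (2.55 to 3.30%) for sites of both telogen lists alone and 2.70% (2.16 to 3.38%) for hair-germ-only sites. These intervals overlap, so the share on X cannot be read as particular to bulge-only sites. The median coverage of bulge peaks was also lower on X, at 45 fragments, against 52 to 63 on the autosomes. Its part in the X share was not tested. Sex was mixed in every sample and its proportions are not given in the sources used here.

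Most bulge-only sites had a peak of another list nearby. Such distances are not given here for other sets of sites, so they cannot be read as particular to bulge-only sites. The nearest peak of another list lay at a median of 3917.5 bp, the nearest hair germ peak at 6648.5 bp, and 95.6% had another list's peak within 50 kb. The nearest other site was itself bulge-only for 14.0%, though bulge-only sites were 6.74% of all sites. It was a site of the bulge and hair germ lists alone for 12.2% (6.78% of all sites), and a suprabasal-only site for 9.64% (15.5% of all sites). The 1230 sites within 1 kb of another list's peak had a median of 27 fragments and a fold of 3.62. The 1886 sites over 10 kb away had 21 fragments and a fold of 5.07.

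Of the 7750 sites, 51.6% had another bulge-only site within 50 kb, again without a value for other sets. Chains of such steps formed 87 groups of 5 or more sites, holding 522 sites. The biggest had 15 sites over 183 kb on chromosome 4 at Nfib, 13 of them visible at hair germ depth. Next was a group of 12 sites over 183 kb on chromosome 15 at Prlr and Agxt2, of which 5 were visible. Groups of 9 lay at Wwp2, around Sh3pxd2b, at Ccn2 and Moxd1, and on chromosome 8 where no protein-coding gene was assigned. Groups of 8 lay at Zbtb16, Nfatc1, Slc6a6, Bmpr1a and Trabd2b.

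When each site was assigned to the nearest protein-coding gene within 100 kb, 6528 sites fell to 3825 genes, 22.8% of the 16757 genes with any site. Visible bulge-only sites fell to 2823 genes (16.8%). A single bulge-only site was found at 2428 genes and 5 or more at 156 genes. Those 156 genes were long: their span had a median of 262 kb, while genes with any site had one of 23.0 kb.

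Nfib, a nuclear factor I gene of bulge cells, had the most, 19 of its 94 sites (17 visible). Trabd2b, which encodes a membrane protease that inactivates WNT ligands, had 14 (12 visible), and Tenm3, a teneurin adhesion receptor gene, had 14 (7 visible). Kcnma1, the BK potassium channel gene, had 12 (10 visible), Rbfox1, a splicing regulator gene, 12 (6) and Tenm4, another teneurin gene, 12 (7). Dpyd had 11 (8), and Rad51b, Enox1 and Ptprg had 10 each. Wwp2, a ubiquitin ligase gene, had 9 over the shortest gene span of these 12 (123 kb). The counts are raw, and genes with many sites lead more readily. Of all sites at the gene, the bulge-only share ran from 10.6% at Rad51b (94 sites) to 62.5% at Frmpd4 (16 sites), beside 6.74% over all sites. At Rad51b 10 of 69 sites with a bulge peak were bulge-only, near the 12.6% over all such sites. By visible sites, Nfatc1 (8 of 8), Hivep2 (7 of 8) and Adgrl3 (7 of 7) joined the leaders.

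Frmpd4, a scaffold protein gene known from neurons, on chromosome X, had the highest proportion of the genes just named. Bulge-only sites were 10 of its 16 sites, 9 of them visible, with a median fold of 6.92 and none under 3. Its 2 tallest had 82 fragments (fold 13.2) at chrX:168332357-168333393 and 56 fragments (fold 13.8) at chrX:168324909-168325625, each over 10 kb from another list's peak.

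Genes known for bulge identity carried many bulge-only sites. Of 20 genes in a bulge stem cell list, all 20 had bulge peaks and 18 had 1 or more bulge-only sites, all but Foxc1 and Krt15. Over all 16757 genes with any site the share was 22.8%. The 20 listed genes held 499 sites, however, and a gene with many sites more readily has 1 that is bulge-only. The list held 88 bulge-only sites among 372 sites with a bulge peak, 23.7% (19.6 to 28.2%), beside 12.6% over all sites with a bulge peak. Without Nfib, the largest contributor, it was 69 of 300 (23.0%). At hair germ depth 69 of the 88 would be visible. Of the 88, 38 (43.2%) had a fold under 3, a larger share than the 12.7% of all bulge-only sites. Among sites whose highest bulge fold was 3 or more, 50 of 301 were bulge-only in the list (16.6%, 12.8 to 21.2%), beside 11.5% over all such sites, so the gap was smaller there. The list was written with earlier results of these data known, and CD34 and the Lgr5 reporter were used in the sort.

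Cd34, which encodes the surface protein of the bulge sort gate, had 2 bulge-only sites. The site within the gene, at chr1:194941183-194942022, had 101 fragments (fold 4.87), and a second at chr1:194908923-194909716 had 43 fragments and a fold of 10.6. Both were visible at hair germ depth. The hair germ and both TAC populations were sorted as CD34-, yet 7 of the 11 Cd34 sites held a hair germ peak, 6 held one of basal TACs and 6 one of suprabasal TACs. The part of the gate in the Cd34 sites was not tested.

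Among the receptors, Lgr5, which binds R-spondin and was the source of the GFP reporter in 3 of the populations, had 5 sites. All were visible, at 93, 47, 39, 27 and 24 fragments, and 4 of the 5 would pass by the recomputed p. The sites of 47 and 24 fragments had folds of only 2.68 and 1.94 and lay 96856 and 88493 bp from the gene. The strongest by fold was the site of 39 fragments (9.65), at chr10:115617369-115617703. Prlr, the prolactin receptor gene, had 9 sites, but only 2 were visible. The tallest, at chr15:10322269-10322898, had 45 fragments and a fold of 10.9, and the other 8 had 11 to 20.

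The transcription factor genes differed in kind. At Nfatc1, a factor that keeps bulge cells quiescent, all 8 sites were visible at 21 to 64 fragments, but 7 had a fold under 3, on a median local background of 11.9 fragments. At Nfib 13 of 19 sites had a fold under 3 (median 2.61), and at Nfix 2 of 3. The single Lhx2 site, of 61 fragments, had a fold of 1.85. At Tcf7l2 none of the 5 sites had a fold under 3, the median was 8.21, and the third visible one had 33 fragments. Only the Tcf7l2 site of 170 fragments lay inside the gene span, and the others lay 21501 to 95589 bp outside it. Tcf7l1 had sites of 117, 21 and 19 fragments with folds of 3.45, 5.31 and 4.11. Sox9 had 1 site of 26 fragments (fold 6.52) at chr11:112739690-112740128. Zbtb16, the PLZF zinc finger gene, had 8 sites of 11 to 76 fragments (median fold 4.01), and Tbx1 had sites of 29 and 19.

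The recomputed p is derived from coverage and fold, so at a given coverage a low-fold site is weaker on the caller's scale by construction. The counts by gene are a description. By the recomputed p, 14 of the 19 Nfib sites and 7 of the 8 Nfatc1 sites would pass in the hair germ list, compared with 5 of 5 at Tcf7l2 and 2 of 2 at Cd34. At Prlr 5 of 9 sites passed by p and 2 by coverage. Over all bulge-only sites more passed by p (7235) than by coverage (5027) as well. The cutoff for p was the lowest value of the hair germ list, while that for coverage was the 5th percentile.

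The genes of secreted WNT regulators in the list, Sfrp1, Dkk3 and Wif1, all had bulge-only sites. Of sites with a bulge peak, 6 of 21 at Sfrp1, 2 of 11 at Dkk3 and 1 of 8 at Wif1 were bulge-only. Over all such sites the share was 12.6%, so a gene with this many sites readily has 1. Sfrp1 had 6, of 12 to 83 fragments, but the tallest had a fold of only 1.60. Dkk3 had sites of 103 and 76 fragments, with folds of 8.21 and 3.80, both visible, the taller at chr7:112164442-112165612. Wif1 had 1 of 28 fragments (fold 5.40). Fgf18, whose product helps keep follicles at rest, had 3 sites of 34, 26 and 15 fragments.

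Genes of matrix and anchorage completed the list. Col17a1, the hemidesmosomal collagen XVII gene, had 6 sites, all visible at 25 to 75 fragments, with a median fold of 2.53 and 4 of 6 under 3. Postn, the matrix protein periostin gene, had 4 sites of 46, 29, 25 and 16 fragments with folds of 11.3, 7.24, 5.53 and 4.10. At Postn no suprabasal TAC peak was assigned, and its 11 sites held 10 bulge, 7 hair germ and 3 basal TAC peaks.

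**Figure D4:**
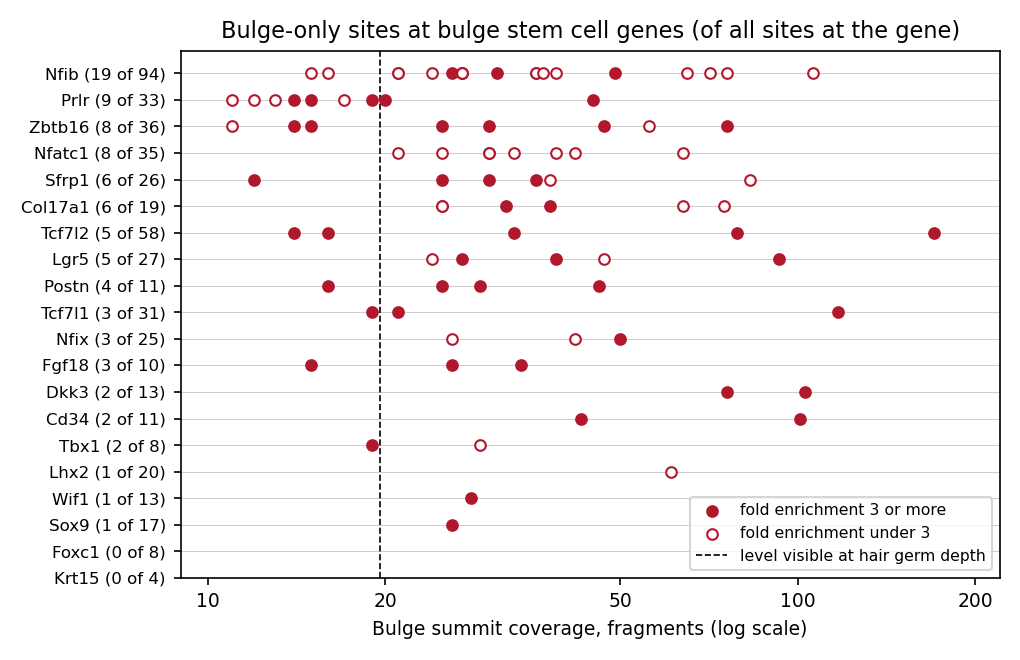
Bulge summit coverage (fragments, log scale) of every bulge-only site assigned to the 20 genes of the bulge stem cell list, with the number of bulge-only sites of all sites at the gene in brackets. Filled points have a fold enrichment of 3 or more, open points under 3, and the dashed line is the level visible at hair germ depth. Open points dominate at Nfib and Nfatc1 (13 of 19 and 7 of 8), while all points at Tcf7l2, Cd34, Dkk3 and Postn are filled.

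Signalling pathway genes lay near the background. In the WNT list 42 of 307 sites with a bulge peak were bulge-only (13.7%), with Lgr5, Sfrp1, Tcf7l2, Tcf7l1, Dkk3 and Wif1 shared with the bulge list. Outside it, Tle4, a corepressor gene, had 4 sites, and Axin2, a WNT feedback gene, had 3 of up to 36 fragments. The shares were 11.0% in the BMP list (15 of 136), 12.3% in the TGF-beta list (16 of 130) and 16.5% in the FGF list (13 of 79). Each interval spanned 12.6%. Bmpr1a, a BMP receptor gene, had 4 sites (2 visible). Tgfbr2, a TGF-beta receptor gene, had 4 (all visible, up to 56 fragments), and Fgfr2, an FGF receptor gene, 4 (all visible, median fold 2.76). Id1, a BMP target gene, had 1 site of 72 fragments.

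In the hemidesmosome and basal adhesion list, 26 of 162 sites with a bulge peak were bulge-only (16.0%, 11.2 to 22.5%). Itga6 had 6, of which only the tall site and another of 31 fragments were visible. Dst, which encodes the hemidesmosomal linker dystonin, had 6 (5 visible), and Npnt and Itgb6 had 2 each. The 5 basal keratin genes had none among 16 sites with a bulge peak, which allows a share of up to 19.4% (upper Wilson bound).

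Among genes of later fates, the matrix list alone had an interval below the background. Of sites with a bulge peak, 6.47% (3.65 to 11.2%, 11 of 170) were bulge-only in the matrix list, beside 12.6% over all sites with a bulge peak. The hair germ list was at 11.6% (7.02 to 18.5%, 14 of 121), where Gli2, a hedgehog effector gene, had 6 sites, 2 of them visible. Inner root sheath genes had 3 of 36 (8.33%, 2.87 to 21.8%) and hair shaft genes 2 of 26 (7.69%, 2.14 to 24.1%). Cell cycle genes were at 14.3% (9 of 63), led by Ccnd2 with 3 sites of up to 89 fragments. CDK inhibitor and quiescence genes were at 12.8% (10 of 78), led by Foxo3 with 3.

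**Figure D5:**
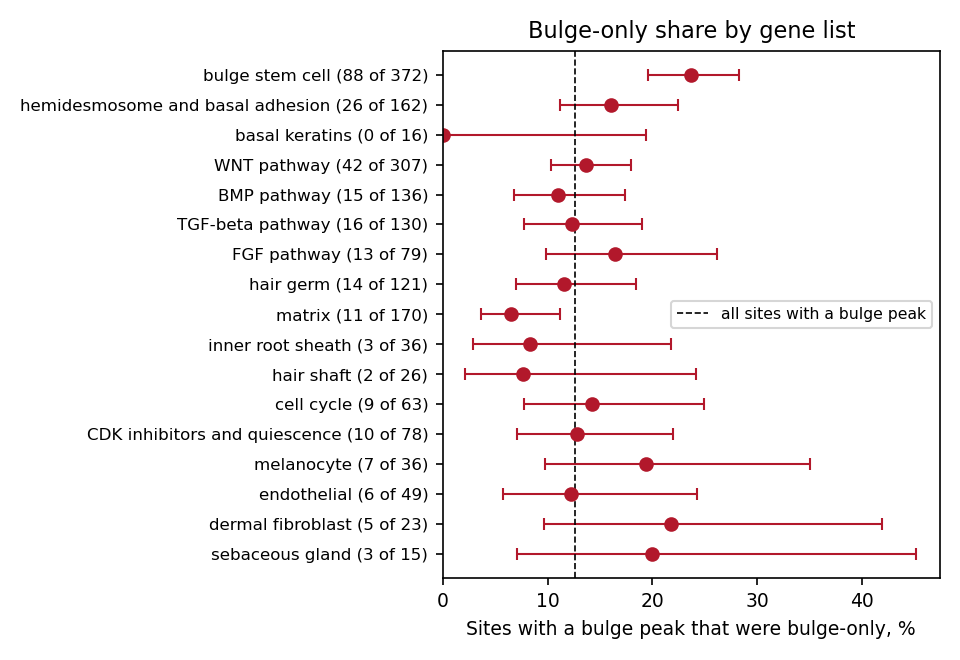
Share (%) of sites with a bulge peak that were bulge-only, for gene lists with 15 or more such sites (counts in brackets). Points carry 95% Wilson intervals and the dashed line is the share over all sites with a bulge peak, 12.6%. The bulge stem cell list (23.7%) lies above the line with its interval, the matrix list (6.47%) below it.

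Marker genes of other skin cells were also counted, since a sort can carry such cells along. Each of these lists had an interval that spanned 12.6%, the share over all sites with a bulge peak. Of 6 immune genes, 1 (Ptprc) had a bulge peak, and none of its 3 was bulge-only. In the melanocyte list all 7 bulge-only sites were at Mitf, and the other members had none among 10 sites with a bulge peak. Endothelial genes had 6 of 49 (12.2%) bulge-only, at Kdr, Flt1, Pecam1 and Emcn. Dermal fibroblast genes had 5 of 23 (21.7%, 9.66 to 41.9%), at Pdgfra (2, of up to 48 fragments), Col1a1, Col1a2 and Dpt. Of the other fibroblast genes, Col3a1 and Lum had no bulge peak, and the bulge peak at Twist2 was not bulge-only. Sebaceous gland genes had 3 of 15, Merkel cell genes 1 of 7 (at Sox2), and nerve and Schwann cell genes 2 of 12 (both at Ngfr). The part of such cells in the bulge-only sites was not tested.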

How the data were processed

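The authors deposited 4 peak lists, 1 per population, from an alignment that pools both of its samples. Per the file headers, peaks were called with MACS 2.1.1.20160309 at a q-value cutoff of 0.05, with no control, an effective genome size of 1.87e+09 and a 10 kb background window. Alignment with Bowtie2 2.2.9, the use of Picard and the mm10 build are per the submitters' processing notes. For every peak the deposited columns give a length in bp, a summit coverage (pileup signal, not scaled for depth), −log10 p and q values and a fold enrichment ratio over local background, all from the authors' caller. Peaks were called from whole fragments. Whether read ends were shifted for the cut of the enzyme is not stated in these sources.

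Lists were merged and counted with pandas 2.3.3 and scipy 1.17.1, and the merging was tested on simulated data. Local background was computed as (coverage + 1) / fold − 1. From it the caller's −log10 p was recomputed as a Poisson tail, to within 0.000141 for 95% of bulge peaks. The 13 bulge peaks on chromosomes M and Y were set aside. Positions are 1-based, in mm10. Genes came from a RefSeq table of GRCm38.p6 with 21631 protein-coding genes, which gives neither strand nor exons. A site was assigned to the nearest gene span within 100 kb.

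The members, the 20 gene lists and the 16 motifs were chosen with earlier results of these data known. Named were the 20 sites with the highest coverage, the 12 genes with most bulge-only sites, the 8 with most visible ones, all bulge stem cell genes and the leading members of other lists. The ranking by fold, the promoters, the microRNAs and the split at a fold of 3 were chosen after the values were seen. Each population had 1 list, so no test was possible and Wilson intervals (95%) cover counting error only. Depth per library is given above, and the hair germ list, from the fewest fragments, was the least sensitive.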

Additional observations from a re-analysis of the deposited data

How the results depend on the processing

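Of the alternative values computed, 7 moved, a count by over 1.5 times or a share out of its interval, and 19 did not, though among these the visible count reached 7235. The number of bulge-only sites was 3421 where bulge peaks needed a −log10 q of at least 10 and every other peak was kept, and 15545 without the hair germ list, an alternative chosen after seeing the data. The other settings gave 6520 to 10505. The number visible, the same at hair germ depth and at all 3 depths, was 2180 with the 25th percentile as the level and 599 with the median. Near gene ends lay 2.92% of sites with a −log10 q of at least 10. The 18 bulge stem cell genes became 16 with a 20 kb limit or with gene spans extended by 10 kb.

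No paired analysis was possible because each population has 1 list pooled from both samples, and no column carries a replicate. Leaving out a replicate was not possible either. The planned motif search around peak summits, and its whole-peak alternative, were not run, since genome sequence was not used here, and promoter windows were searched instead, a choice made after seeing the data.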
